A study of Homo sapiens with 6 samples.

Results

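The 5S rRNA genes and pseudogenes were those genes of 3 deposited lists of GAPDH crosslink peaks whose symbol was 5S_rRNA or began with RNA5S, a rule that uses names only and leaves out the 5.8S genes. It found 40 genes of 947, carried by 56 of 1776 rows, each row pairing a peak with an annotated gene, and all 56 rows were distinct peaks among 1316 in the lists. Of the 40, 1 was a 5S gene of the main array, RNA5S9, and 39 had symbols of pseudogenes, 38 of which GENCODE also types as rRNA pseudogenes and 1, RNA5SP150, as rRNA. They were spread over 18 chromosomes. No row had the symbol 5S_rRNA.

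The study cultured MOLM-13, an established human acute myeloid leukaemia line, in medium with galactose in place of glucose, or with low or normal glucose, and crosslinked RNA to protein with UV light before GAPDH was precipitated with an antibody (CLIP-seq). It had 6 samples, 2 for each of the 3 conditions, and the labels name no other agent or allele. The authors joined both samples of a condition into 1 list of positions, so that no spread between samples could be had and no comparison below carries a test. The series asked whether the sugar in the medium alters which RNAs GAPDH, a glycolytic enzyme that also binds RNA, is crosslinked to.

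5S rRNA is the smallest RNA of the large ribosomal subunit and is transcribed by RNA polymerase III from a promoter inside the gene. Before it joins the ribosome it forms a particle with the ribosomal proteins RPL5 and RPL11, and this particle is also known to restrain MDM2, the ligase that degrades p53. The human genome holds an array of near-identical 5S genes on chromosome 1 and many scattered copies annotated as pseudogenes, which often arose by reverse transcription of the RNA and are shorter than it or diverged from it.

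RNA5S9 (chr1:228628146-228628266, hg38, minus strand; RefSeq coordinates) has 121 nt and served as the ruler for all copies: each copy was aligned to it, and positions are counted from its base 1. The crosslink sites fell at 3 places of the RNA. The sequences below are shown because they place the sites on the RNA. Each is a 30-nt window of hg38 on the strand of the copy, 5′ to 3′, with the called site or run of adjacent sites in capitals. The first set holds the place near base 88, here called the middle, in RNA5S9 and 4 pseudogenes:
RNA5S9: agtacttggacgggAGAccgcctgggaata
RNA5SP202: agtacttggatgggAgaccgcctgggaata
RNA5SP149: tacttggaagggagAcagtgattactcgct
RNA5SP370: tacttggatgggagAagttacagcttcagg
RNA5SP99: agtacttggatgggAgaaaagagagaaggg
In RNA5S9 and RNA5SP202 the 5S sequence continues well past the site, whereas in RNA5SP149, RNA5SP370 and RNA5SP99 it ends at the site or 1 to 2 bases after it and the rest of the window is the surrounding genome.

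The second set holds the 5′ end, where the site lies just before the first base of the RNA (gtctacgg in RNA5S9):
RNA5SP202: tggccttttccagcCacgtctacggccata
RNA5SP149: attagacagtgattGctgtctacggccata
RNA5SP370: agaagttacagcttCagtctacggccatac
RNA5SP161: tgagaatgtgacctGtcctctacggccata
The third set holds the 3′ end, where the site lies at or just after the last base of the RNA:
RNA5SP132: ggtgctgtaggcttTTggcctatcgttccc
RNA5SP207: ggtgatataggcttTTggcttcctgctccc
RNA5SP242: ggtgctgtaggtttTTggcttcccgctccc
RNA5SP452: gtgctgtcggctttAaaaaaacaaacactg
RNA5SP286: ggtgctgtaggtttGTctacggccatacca
RNA5SP336: gtgctgtaggctgtCtacgaccataacacc
In RNA5SP286 and RNA5SP336 the bases right after the 3′ end read like the start of another 5S RNA.

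The galactose list held 8 peaks on 5S copies among its 337, or 2.37% (95% interval 1.03 to 4.62). The low glucose list held 13 of 484, or 2.69% (1.44 to 4.55), and the normal glucose list 35 of 495, or 7.07% (4.97 to 9.70). The intervals are exact Clopper-Pearson intervals and cover counting error over peaks only. Those of galactose and low glucose lay wholly below that of normal glucose and overlapped each other almost fully. Each peak met a single copy, so the number of copies in a list equals the number of its peaks.

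The galactose count was 0.229 times and the low glucose count 0.371 times that of normal glucose, where all peaks together gave ratios of 0.681 and 0.978. Other small RNAs had other patterns of counts. Copies of 7SL, the RNA of the signal recognition particle, held 13 galactose peaks, 7 low glucose peaks and 13 normal glucose peaks. Copies of U6, the catalytic spliceosomal RNA, held 5, 5 and 7, and the 5.8S rRNA, which comes from the RNA polymerase I transcript, held 3 in each list. These shares of other RNAs had intervals that overlapped between all 3 lists, and the differences were not tested. No RNA that had not been precipitated was analysed here, so the amount of 5S RNA in the cells and its crosslinking to GAPDH cannot be told apart.

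**Figure D1:**
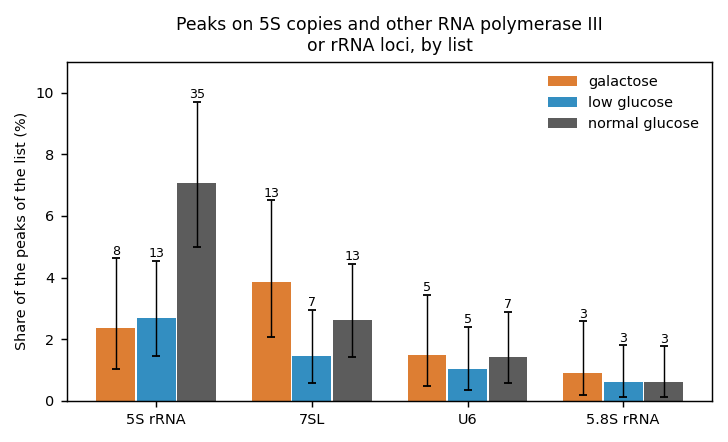
Share of the peaks of each list (%, y axis) that met copies of 5S rRNA, 7SL, U6 and 5.8S rRNA (x axis), with exact 95% intervals as bars and the number of peaks above them. For 5S rRNA the normal glucose bar, with 35 peaks, stands above galactose with 8 and low glucose with 13.

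Overlapping peaks of different lists (at least 1 nt) were merged into regions, and each of the 40 copies gave 1 region. RNA5S9, RNA5SP149, RNA5SP150, RNA5SP202 and RNA5SP370 had a peak in all 3 lists, RNA5SP336 in galactose and low glucose, RNA5SP74 and RNA5SP242 in galactose and normal glucose, and RNA5SP216, RNA5SP387 and RNA5SP429 in low and normal glucose. RNA5SP132, RNA5SP207, RNA5SP286 and RNA5SP452 had a peak in low glucose alone, and none had one in galactose alone. The remaining 25 copies (62.5%, 45.8 to 77.3) had a peak in normal glucose alone, beside 34.1% of all 951 regions.

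Among the 36 5S regions of galactose or normal glucose, 1 (2.78%) was in galactose alone and 28 (77.8%, 60.9 to 89.9) were in normal glucose alone. Over all 689 regions of these lists the shares were 28.6% and 51.4%. Among the 40 5S regions of low or normal glucose, 5 (12.5%, 4.19 to 26.8) were in low glucose without normal glucose and 27 (67.5%, 50.9 to 81.4) in normal glucose without low glucose, beside 41.4% and 42.5% of all 840 regions. The 5S regions were thus on the side of normal glucose more often than the lists as a whole, in both pairs. Among the 15 5S regions of galactose or low glucose, 2 (13.3%) were in galactose without low glucose, beside 23% of all 627 regions. Another 7 of the 15 (46.7%) were in low glucose without galactose, beside 46.6% of all regions.

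Of the 8 galactose peaks on 5S copies, 6 (75%, 34.9 to 96.8) overlapped a low glucose peak, beside 56.97% of all galactose peaks, and 7 (87.5%, 47.4 to 99.7) a normal glucose peak, beside 41.3%. In each case 5 had identical first and last positions. Of the 13 low glucose peaks 6 (46.2%) overlapped a galactose peak, beside 39.7% of all peaks of that list, and 8 (61.5%, 31.6 to 86.1) a normal glucose peak, beside 27.9%. Of the 35 normal glucose peaks 7 (20%) overlapped a galactose peak, beside 28.3% of all peaks of that list, and 8 (22.9%) a low glucose peak, beside 27.3%.

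The authors extended each isolated crosslink site to both sides, by 50 nt as the narrowest peaks show, so the site could be read back as the middle of such a peak, and in wider peaks the outermost sites lie 50 nt inside either end. Of the 56 peaks, 17 had a single site and 16 a run of 2 or 3 adjacent ones. The other 23 were wide (over 150 nt), and what lies between their outermost sites is not recorded. The lists give no strand, and the strand used is that of the annotated copy.

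All but 2 of the 56 peaks had an outermost site at the 5′ end, the middle or the 3′ end of the RNA. At the 5′ end, 27 peaks of 18 copies had a site 2 or 3 bases before base 1, with the third base before it the commonest (14 copies). At the middle, 38 peaks of 29 copies had a site between bases 82 and 90, and base 88 was the commonest (15 copies), the last site of a run being counted. At the 3′ end, 12 peaks of 9 copies had a site between bases 121 and 124, where 121 is the last base and 124 lies 3 bases past it. The other 2 peaks, at bases 40 and 38, belonged to RNA5SP216, of which the first 50 bases alone matched RNA5S9.

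**Figure D2:**
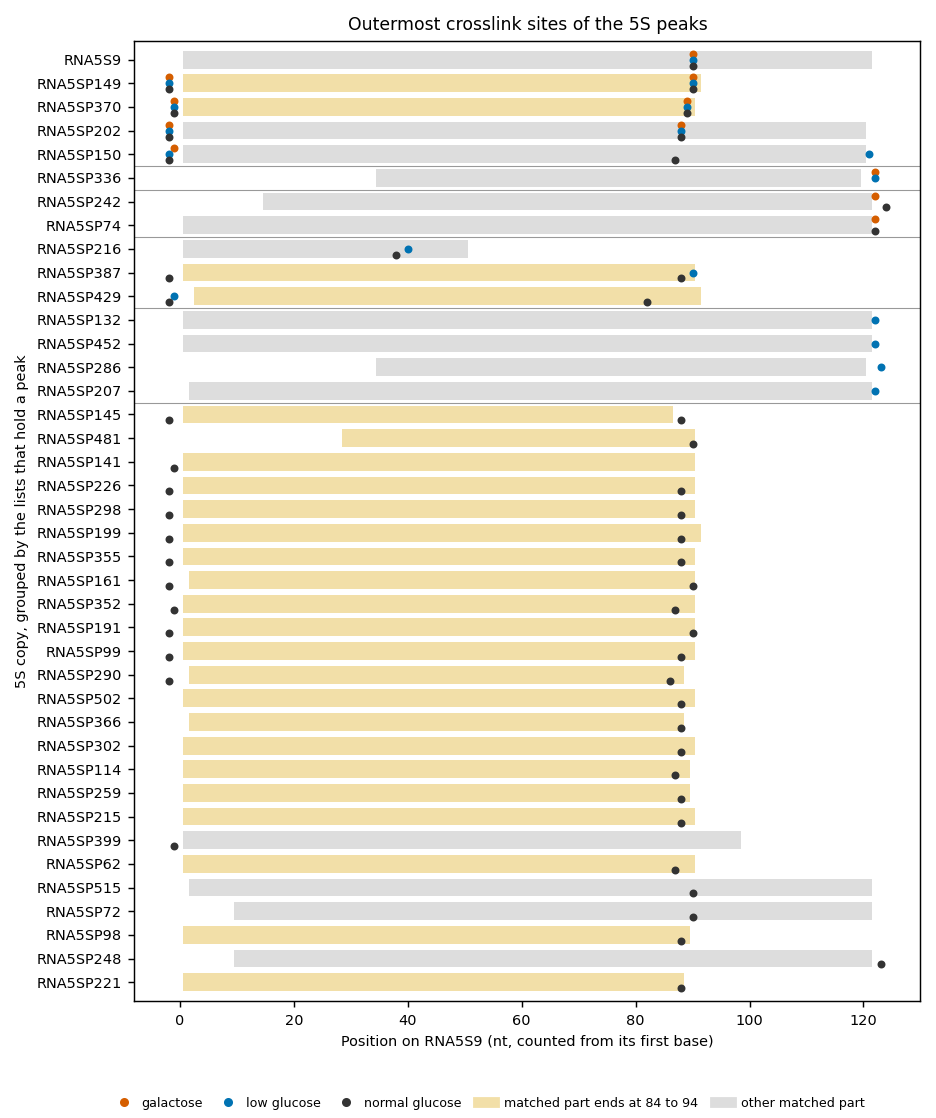
Outermost crosslink sites of the 5S peaks (points, the last of a run of adjacent sites; galactose, low and normal glucose drawn from top to bottom within a copy) on the positions of RNA5S9 (x axis, nt) for the 40 copies (y axis), with a line between groups of copies that share a pattern of lists. Bars are the part of each copy that matched RNA5S9, in yellow where it ends at base 84 to 94; sites gather before base 1, at bases 82 to 90 and at bases 121 to 124, and position -2 on the axis is 3 bases before base 1.

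The middle site stood directly after a G in all 38 peaks, and on an A in 33 of them. These peaks lay on 29 copies that share most of their letters here, so the 38 are not separate observations. At the 5′ end 2 of 27 sites followed a G, and at the 3′ end 2 of 12 did. RNase T1, which cuts RNA after G, was used on the precipitated RNA according to the study's methods, and its part in where the sites lie was not tested. Without the single-site peaks that follow a G, galactose kept 8 peaks, low glucose 12 and normal glucose 23.

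The 3 lists drew on these places in different proportions. A site at the middle was present in 4 of 8 galactose peaks (50%, 15.7 to 84.3), 5 of 13 low glucose peaks (38.5%, 13.9 to 68.4) and 29 of 35 normal glucose peaks (82.9%, 66.4 to 93.4). A site at the 3′ end was present in 3 of 8 galactose peaks (37.5%, 8.52 to 75.5), 6 of 13 low glucose peaks (46.2%, 19.2 to 74.9) and 3 of 35 normal glucose peaks (8.57%, 1.80 to 23.1). A site at the 5′ end was present in 4 of 8 galactose peaks, 5 of 13 low glucose peaks and 18 of 35 normal glucose peaks. With so few peaks, the intervals of each place overlapped between every pair of lists.

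The same split ran through the patterns of lists. The 4 copies of low glucose alone, RNA5SP336 of galactose and low glucose, and RNA5SP74 and RNA5SP242 of galactose and normal glucose had their sites at the 3′ end and nowhere else. Of the 25 copies of normal glucose alone, 22 had a site at the middle, 12 at the 5′ end and 1 at the 3′ end, RNA5SP248, a copy named here after its values were seen. Of the 9 copies with a 3′ site 8 lie on the minus strand of their chromosome, RNA5SP242 being the exception. On the minus strand lie 12 of 29 copies with a middle site and 6 of 18 with a 5′ site. Of all 530 annotated copies 258 lie on the plus strand. Among copies without a symbol, described below, a 3′ site was on the plus strand within EDA and on the minus strand on chromosome 19.

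Wide peaks were frequent on the 5S copies. Of the galactose peaks 3 of 8 were wide (37.5%, beside 13.7% of the other peaks of that list), of the low glucose peaks 4 of 13 (30.8%, beside 13.6%), and of the normal glucose peaks 16 of 35 (45.7%, beside 18.04%). Over the 3 lists this was 41.1% of 5S peaks (28.1 to 55.02) and 15.2% of the others (13.3 to 17.3). In 22 of the 23 the outermost sites were the 5′ end and the middle, 90 to 93 bases apart with both sites counted. The exception was the low glucose peak of RNA5SP150, whose outermost sites were 124 bases apart, at the 5′ and the 3′ end.

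Of the copies with a peak in several lists, 6 had the same positions in each, RNA5S9 among them. RNA5SP149 (chr3:180161886-180161977, outside other genes), RNA5SP202 (chr6:4427963-4428081, in an intron of a long noncoding RNA) and RNA5SP370 (chr12:104125236-104125356, in an intron of NFYB, a subunit of the CCAAT-binding factor NF-Y) each had the same wide peak in all 3 lists. RNA5SP336 (chr11:21000881-21000997, within NELL1, which encodes a secreted protein of bone formation) had its single site 1 base past the last base in galactose and in low glucose. RNA5SP74 (chr1:204562413-204562521) had the same 2 adjacent sites, at bases 121 and 122, in galactose and in normal glucose. RNA5SP202, RNA5SP370 and RNA5SP336 lie on the strand opposite to the genes around them.

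RNA5SP150 (chr3:181822872-181822990, within SOX2-OT, the long noncoding RNA around SOX2) differed between lists. Its galactose peak had sites only at the 5′ end, 2 and 3 bases before base 1, its low glucose peak ran from the 5′ end to base 121, and its normal glucose peak ran from the 5′ end to base 87. The sequence past its 3′ end is highly repeated, with a 30-mer of the low glucose peak occurring 44824 times in the genome. RNA5SP387 (chr14:75604173-75604278, within FLVCR2, a membrane transporter gene) had a single site at base 90 in low glucose, and sites at the 5′ end and base 88 in normal glucose. RNA5SP429 (chr16:68742480-68742588, within CDH1, the gene of E-cadherin) had sites at the 5′ end alone in low glucose, and from the 5′ end to base 82 in normal glucose. RNA5SP242 (chr7:128697439-128697556) had sites at bases 121 and 122 in galactose and at 124 in normal glucose. RNA5SP216 (chr6:125979812-125979934) overlaps an exon of HINT3, a histidine triad hydrolase gene. It had a site at base 40 in low glucose and at base 38 in normal glucose. RNA5SP150 and RNA5SP216 lie on the strand opposite to SOX2-OT and HINT3. RNA5SP387 and RNA5SP429 lie on the same strand as FLVCR2 and CDH1.

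A local alignment gave the part of each copy that still matched RNA5S9. It sorted the annotated copies of GENCODE release 44 into short ones, whose matched part ended at bases 84 to 94, full ones, which reached base 115 or beyond, and others. These classes were drawn after the positions of the sites had been seen. Of the 530 annotated copies 273 were short, 173 full and 84 other, and the 40 copies with a peak comprised 25 short, 13 full and 2 other copies. The word full refers to the 3′ end alone. A matched part that also began at base 1 to 3 was found in 8 of the 13 full copies with a peak. Among full copies without a peak this held for 91 of 157. Short copies thus made up 62.5% (45.8 to 77.3) of the copies with a peak and 50.9% (46.4 to 55.5) of the 487 copies without any, 3 further copies with a peak but no symbol being left out.

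The lists differed in the class of copy their peaks fell on. Short copies carried 2 of 8 galactose peaks (25%, 3.19 to 65.1), 4 of 13 low glucose peaks (30.8%, 9.09 to 61.4) and 25 of 35 normal glucose peaks (71.4%, 53.7 to 85.4). Full copies carried 6 of 8 galactose peaks, 8 of 13 low glucose peaks and 8 of 35 normal glucose peaks. On full copies the counts of the 3 lists were thus close to each other, and the higher count of normal glucose lay in the short copies. The intervals of these shares overlapped between normal glucose and either of the others.

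**Figure D3:**
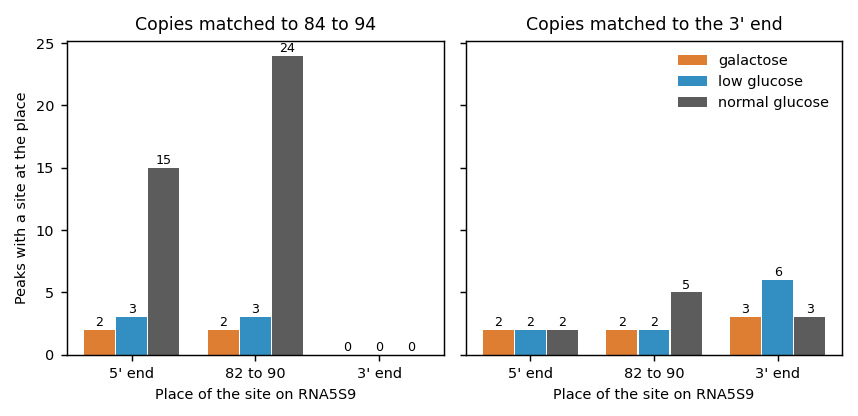
Number of 5S peaks (y axis) with a site at the 5′ end, at bases 82 to 90 and at the 3′ end of the RNA (x axis), for copies whose matched part ends at bases 84 to 94 (left) and at base 115 or beyond (right), by list. On short copies normal glucose has 24 peaks with a site at bases 82 to 90, galactose 2 and low glucose 3; on full copies the 3′ end has 3 galactose peaks, 6 low glucose peaks and 3 normal glucose peaks.

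Short copies were defined by a matched end at bases 84 to 94, after the middle sites had been seen, so a middle site lies near the matched end of a short copy largely by definition. As a description, 24 of the 25 distinct middle sites of the 24 short copies that had one lay within 3 nt of the last matched base. In the 5 full copies with a middle site, the site lay at -33 to -30 relative to that base, well inside the RNA. All 9 copies with a 3′ site were full, and their sites lay 1 to 3 bases after the last matched base. The 3′ place (bases 116 to 126) and the full class (base 115 or beyond) were also set after the sites had been seen. The nearness of the 3′ sites to the matched end is therefore largely by definition too. The 5′ sites lay before the first matched base in all 18 copies, as any site before base 1 must.

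Reverse-transcribed insertions are commonly flanked by a short direct repeat of the target DNA, and such a repeat was looked for in the 20 bases before and the 24 bases after each matched part, with 3 bases of the matched part itself taken in at either end. The longest repeats among the copies with a peak are shown with the repeat in capitals, which can therefore include up to 3 of the copy's own first or last bases:
RNA5SP145 upstream: tttAGAAATTATATTCACCTGtctacggcc
RNA5SP145 downstream: cttggatggAGAAATTATATTCACCTGagg
RNA5SP370 upstream: ttatAGAAGTTACAGCTTCAGtctacggcc
RNA5SP370 downstream: gatgggAGAAGTTACAGCTTCAGgccgggc
RNA5SP99 upstream: ataAGAAAAGAGAGAAGGGCgtctacagcc
RNA5SP99 downstream: gatgggAGAAAAGAGAGAAGGGCtttgttg
A repeat of at least 8 nt flanked 22 of 25 short copies with a peak (88%) and 116 of 248 short copies without one (46.8%). It flanked 1 of 13 full copies with a peak and 8 of 157 full copies without one. In 11 of the 14 short copies that had both such a repeat and a 5′ site, the site lay inside the upstream repeat. In 13 of the 21 short copies that had both a repeat and a middle site, that site lay inside the downstream repeat. The stretches searched take in the bases of these sites, so such overlap is in part set by the search.

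Over their matched part, the short copies with a peak were closer to the RNA than those without. Their identity to RNA5S9 ranged from 81.8% to 98.9% with a median of 94.4%, against a median of 85.2% in short copies without a peak. A peak in any list was present on 7 of 8 short copies with at least 97% identity, 7 of 13 with 94 to 97%, 7 of 34 with 91 to 94%, 2 of 35 with 88 to 91%, 1 of 60 with 85 to 88% and 1 of 123 below 85%. RNA5SP149 and RNA5SP370, the short copies found in all 3 lists, had 98.9% each, the highest values among the short copies with a peak. Among the full copies at 97% or more, 1 of the 17 near-identical array genes and 1 of 2 others had a peak. Below that, a peak was present on 3 of 4 full copies with 94 to 97% identity, 0 of 3 with 91 to 94%, 4 of 11 with 88 to 91%, 2 of 25 with 85 to 88% and 2 of 111 below 85%. The copies with a peak but no symbol, counted here as without one, were 1 each at 94 to 97%, 91 to 94% and 85 to 88%. Outside the array the lowest shares of full copies were thus, apart from the 3 copies at 91 to 94%, also at the lowest identities. Copies are not replicates of a condition.

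**Figure D4:**
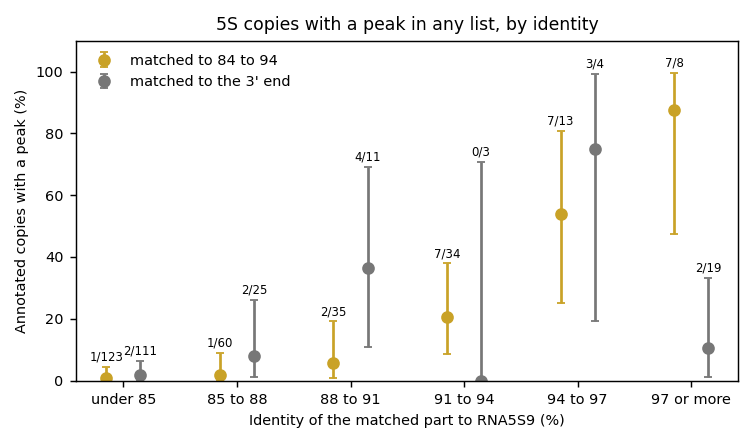
Share of the annotated 5S copies (%, y axis) with a peak in at least 1 list, by the identity of their matched part to RNA5S9 (x axis, %), for short and full copies, with exact 95% intervals and the numbers of copies. The share of short copies with a peak is 1 of 123 below 85% identity and 7 of 8 at 97% or more.

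Over the whole length the identity was lower. The short copies lack the last part, and in any copy the matched part leaves out ends that align poorly. The full copy RNA5SP336, for instance, had 94.1% over its matched part and 80.3% over the whole length. The 40 copies with a peak had a median of 80.5% (64.8 to 100), and the 487 without had 72.7%. By list the medians were 88.02% for galactose, 84% for low glucose and 80.7% for normal glucose. Over the matched part they were 97.08%, 94.12% and 94.39%, so normal glucose was not the lowest there. The lowest whole-length values among copies of normal glucose alone were 68.9% in RNA5SP481 (chr20:32008351-32008472), which had a site at base 90, 72.7% in RNA5SP221 (chr6:143449809-143449911) and 74.8% in RNA5SP215 (chr6:120686621-120686742), both with a site at base 88. The highest were 85.95% in RNA5SP515 (chrX:135428168-135428285) and 84.3% in RNA5SP72 (chr1:185014951-185015067), full copies with a site at base 90. Next was 83.1% in RNA5SP141 (chr3:134783436-134783555), a short copy with sites at the 5′ end. Over the matched part RNA5SP481, RNA5SP221 and RNA5SP215 had 98.4%, 81.8% and 90.2%. RNA5SP515, RNA5SP72 and RNA5SP141 had 86.7%, 86.6% and 97.8% there, so the whole-length order was not kept.

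The 10 remaining wide peaks of normal glucose alone were on short copies and ran from the 5′ end to the middle. Their matched parts had 94.3% to 98.8% identity. Same-strand hosts were MED12L, a paralogue of a Mediator subunit, for RNA5SP145, CRACD, an actin regulator, for RNA5SP161, CHSY3, a chondroitin sulphate synthase, for RNA5SP191, DIP2C for RNA5SP298 and CCDC91 for RNA5SP355. PDE10A, a cyclic nucleotide phosphodiesterase, around RNA5SP226, TGFBR1, a TGF-β receptor, around RNA5SP290, and SIAE, a sialic acid esterase, around RNA5SP352 lie on the opposite strand. RNA5SP99 and RNA5SP199 lie outside other genes.

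The 4 copies of low glucose alone were full copies with a site 1 or 2 bases past the last base of the RNA. RNA5SP132 (chr3:51694465-51694582) lies within TEX264, which encodes a receptor for autophagy of the endoplasmic reticulum, on the opposite strand, and RNA5SP452 (chr18:24170505-24170623) within OSBPL1A, an oxysterol-binding protein gene, on the same strand. RNA5SP207 (chr6:41239520-41239626) and RNA5SP286 (chr9:73750972-73751077) lie outside other genes. The letters TCTACG, which occur near base 1 of RNA5S9, stood between 3 bases before and 20 bases after the last matched base in RNA5SP286 and RNA5SP336 and in no other of the 173 full copies (1.16%). The letters TTTGGC stood there in 4 of the 9 copies with a 3′ site, RNA5SP74, RNA5SP132, RNA5SP207 and RNA5SP242, in all 17 array genes, and in 55 of the 173 full copies (31.8%). The reverse complements of both were in none of them. A match describes these letters only.

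RNA5S9 was the only gene of the array (17 copies between positions 228610268 and 228646158 of chromosome 1) with a peak. The peak was identical in all 3 lists (chr1:228628127-228628229), with sites at bases 88 to 90. RNA5S9 differs from each of the other 16 array genes by C84T alone, where C is the base of RNA5S9, 84 is counted from its 5′ end and T is the base of the others. Of the 74 30-mers of the peak 44 (59.5%) occur elsewhere in the genome, so the assignment of this peak to RNA5S9 and not to another copy is uncertain. Within the gene, 66.67% of the 30-mers of RNA5S9 and 100% of those of each other array gene occur elsewhere. The other 16 array genes are therefore not shown to lack crosslinking by having no peak. A peak with over 50% recurrent 30-mers was found in 1 of 8 5S peaks of galactose, 2 of 13 of low glucose and 2 of 35 of normal glucose, where 18.2%, 13.6% and 26.7% of the other peaks of these lists were of this kind. The median share of recurrent 30-mers in a 5S peak was 32.83%, 34.15% and 24.66%, beside 6.94%, 2.78% and 25% in the other peaks. No recurrent 30-mer was present in 2, 3 and 6 of the 5S peaks. Among the other peaks this held for 143 of 329, 224 of 471 and 133 of 460.

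Most 5S copies with a peak lie within another gene. Of the 40 copies 28 did (70%, 53.5 to 83.4), beside 62.8% (58.3 to 67.1) of 481 copies without a peak for which this was read. Protein coding genes surrounded 22 of them, 12 on the same strand and 10 on the opposite strand, and long noncoding RNA genes 6. The copy overlapped an exon of another gene in 3 cases, RNA5SP216 in HINT3, RNA5SP352 in SIAE and RNA5SP387 in an annotated miRNA gene, and the other 25 copies were intronic. By list, 4 of 8 galactose peaks, 9 of 13 low glucose peaks and 25 of 35 normal glucose peaks were also assigned to another gene. As the lists give no strand, reads from the copy and from an overlapping host transcript cannot be told apart.

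Another 6 peaks lay on 3 genes that GENCODE names 5S_rRNA but that have no symbol in the lists, so the name rule left them out. Their sites fell at the same 3 places. The copy within EDA, the ectodysplasin gene (chrX:69672479-69672597, 95.04% identity), had 1 site 2 bases before base 1 and 1 at base 122 in galactose, the first of these alone in low glucose and the second alone in normal glucose. A copy on chromosome 19 (chr19:7886977-7887096) had a site at base 122 in low glucose, and 1 within GREB1 (chr2:11561661-11561779) had a site at base 90 in normal glucose. With them the galactose list held 10 5S peaks, the low glucose list 15 and the normal glucose list 37.

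Of 36 genes of proteins that bind or assemble 5S RNA or transcribe its genes, 2 had a peak, the ribosomal protein genes of the 5S particle. RPL5 had 1 peak in galactose (chr1:92831987-92832087), 2 in low glucose (chr1:92832049-92832149 and chr1:92833501-92833601) and 1 in normal glucose (chr1:92840667-92840767). The galactose peak and the first low glucose peak overlap, and the others lie apart. The second low glucose peak was also assigned to DIPK1A, and the normal glucose peak to DIPK1A and the snoRNA gene SNORA66. RPL11 had a single peak, in normal glucose (chr1:23695759-23695859). The lists give positions only, and a gene without a peak is not shown to be unbound.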

How the data were processed

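GAPDH CLIP-seq of MOLM-13 cells was deposited as 3 lists. The authors trimmed adapters with cutadapt and mapped reads with STAR to hg38 (GRCh38), per the submitters' processing notes, called crosslink sites with PureCLIP, merged nearby sites, extended solo sites and joined both samples of a condition. Versions, the rule for multiply mapped reads and the annotation release are not given in the sources used here. The labels name rRNA removal, which the methods describe for RNA-seq only, and its part in the 5S counts was not tested. The deposited values are start and end positions, with no count, score or strand, so depth is unknown.

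Positions were taken as 1-based, and rows with the same position counted as 1 peak. All 56 rows matched GENCODE 44 by identifier, symbol and overlap. Copies with 40 nt of flank were aligned to RNA5S9 (RefSeq, GRCh38.p14) globally (match 2, mismatch -2, gap opening -5, extension -1, free end gaps) and locally (mismatch -3) with Biopython 1.88 in Python 3.11.15. Genome sequence was read with pysam 0.24.0, and intervals were computed with SciPy 1.17.1. Placement was tested on simulated copies with sites planted inside the copy alone, so sites outside a copy or at its outermost bases were not covered. The places were bases -10 to 5, 80 to 95 and 116 to 126. Named copies were those in more than 1 list, in galactose or low glucose alone, and, of normal glucose alone, those with a wide peak and the 3 of highest and the 3 of lowest whole-length identity, with 5S partners that had a peak. Members and lists were chosen with earlier results of these data known, and the places, end classes and repeats after the positions were seen. A table of alternatives changed the counting, the overlap rule, the alignment and the start convention.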

Additional observations from a re-analysis of the deposited data

How the results depend on the processing

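No paired analysis was possible because both samples of each condition were joined into 1 list, and for the same reason no sample could be left out. Of 52 alternative values 42 stayed within 1.5 times the count, within the interval of the share or within 1 SD of the identity, and 10 moved. The 42 include values that were bound to stay. Counting rows or copies in place of peaks could not move a count, as each row was 1 peak on 1 copy. Counting starts from 0 shifted a site by at most 1 base, within much wider places. Without single-site peaks after G, normal glucose held 23 peaks in place of 35. On copies matched to the 3′ end alone, an alternative chosen after seeing the data, low glucose held 8 peaks in place of 13 and normal glucose 8 in place of 35, with galactose at 6. With identical ends required, 2 regions were in 2 lists, 8 in low glucose alone and 2 in galactose alone, in place of 6, 4 and 0. Without alignment 7 peaks had a 3′ site in place of 12. Over peaks of a single site run, 4 peaks had a 5′ site in place of 27 and 16 a middle site in place of 38, as wide peaks were left out. Over the matched part, also chosen after seeing the data, the median identity was 93.7% in place of 80.5%. The excess of normal glucose did not hold over full copies alone. Depth could not be read from positions.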
